A study of Mus musculus with 2 samples.

Results

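The miR-130 and miR-301 seed family comprised 4 miRNA genes, Mir130a, Mir130b, Mir301 and Mir301b, of the 1973 gene rows counted in mouse forebrain. Mir301 is the older symbol of Mir301a. The 4 genes were chosen by their place in this seed family and with their measured levels already known, so the levels below are a description and carry no test. Forebrain was taken from healthy B6NCrl embryos at embryonic day 11.5 and pooled over both sexes, 109 embryos for biological replicate 1 and 88 for biological replicate 2. Both pools carry the same donor entry, and no other strain, genotype, treatment or stage was in the series. RNA below 30 bases was sequenced, in a single group of 2 libraries with no control. All 4 genes had counts in both libraries and together took 5.17% of the miRNA gene counts in replicate 1 and 5.53% in replicate 2.

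MicroRNAs (miRNAs) are cut from hairpin precursors and guide Argonaute proteins to messenger RNAs, which they repress. Pairing rests mainly on the seed, bases 2 to 8 from the 5′ end, so miRNAs of different genes with the same seed can repress overlapping sets of messenger RNAs. The miR-130 and miR-301 family is known as a broadly expressed vertebrate family, studied in blood vessel cells, in fat cell formation and in cell proliferation. In this family the 3p arm, cut from the 3′ side of the hairpin, carries the shared seed.

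The mature 3p sequences that define the family are shown first, with the seed in capitals (RefSeq, build GRCm38.p6). RefSeq hairpins were matched for all 4 genes and 3p sequences for 3 of them.

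miR-130a-3p: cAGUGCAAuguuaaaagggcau

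miR-130b-3p: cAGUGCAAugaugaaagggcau

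miR-301a-3p: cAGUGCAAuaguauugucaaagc

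The miR-130a-3p and miR-130b-3p sequences were identical at 20 of 22 bases and shared their first 10. Counted from the 5′ end, with the base of miR-130a-3p first, the differences were U11A and A13G. miR-301a-3p shared its first 9 bases with either of them and was identical at 12 of 22 bases to miR-130a-3p. These 3 sequences therefore had a common 5′ end and 2 kinds of 3′ end.

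The 5p arms, from the other side of each hairpin, are shown because they do not share a seed across the family. Capitals again mark bases 2 to 8.

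miR-130a-5p: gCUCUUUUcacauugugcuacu

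miR-130b-5p: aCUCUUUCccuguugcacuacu

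miR-301a-5p: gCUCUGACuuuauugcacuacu

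miR-301b-5p: gCUCUGACuagguugcacuacu

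miR-301a-5p and miR-301b-5p had the same bases 2 to 8 and were identical at 19 of 22 bases. miR-130a-5p and miR-130b-5p were identical at 15 of 22 bases and within bases 2 to 8 differed at base 8 (U8C). miR-130b-5p was identical at 16 of 22 bases to miR-301a-5p and likewise to miR-301b-5p, so over all 22 bases it was no closer to miR-130a-5p. Within bases 2 to 8 it differed from both miR-301 forms at bases 6 and 7, so there the 5p arms did group by name. Counts were deposited per gene, so reads of the 5p and 3p arms are added together and their shares are not known. The hairpins from which the arms are cut are given with the family seed in capitals.

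Mir130a hairpin: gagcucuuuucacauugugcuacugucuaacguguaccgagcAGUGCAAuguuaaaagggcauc

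Mir301 hairpin: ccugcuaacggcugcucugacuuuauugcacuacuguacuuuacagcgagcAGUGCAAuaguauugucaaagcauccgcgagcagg

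Mir130b hairpin: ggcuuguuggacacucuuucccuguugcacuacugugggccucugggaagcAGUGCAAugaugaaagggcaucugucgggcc

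Mir301b hairpin: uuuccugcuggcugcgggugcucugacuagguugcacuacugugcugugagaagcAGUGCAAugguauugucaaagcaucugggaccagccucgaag

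The motif AGUGCAA stood once in each of the 4 hairpins, read on the strand of the gene, and in 12 of 1005 mouse hairpins in RefSeq (1.19%). A match of letters is a description and does not show which arm was used. The Mir301b hairpin was the longest at 97 bases and that of Mir130a the shortest at 64 bases. Predicted folding energies ran from -39.1 kcal/mol for Mir301b to -22.1 kcal/mol for Mir130a. Per base they were -0.43 kcal/mol for Mir301, -0.40 for Mir301b, -0.37 for Mir130b and -0.35 for Mir130a, beside a median of -0.41 over all hairpins. The longest stretch any of the 4 hairpins shared with another annotated mouse hairpin was 17 bases, between Mir130a and Mir6389. For Mir301 and Mir301b it was 16 bases, shared with each other, and for Mir130b 16 bases, shared with Mir6368. None of the 4 hairpins thus had a stretch of 20 bases in common with another. The Mir301b hairpin nevertheless holds the sequence of miR-301a-3p but for a single base (g in place of a). How well reads of Mir301 and Mir301b were told apart was not measured. Reads that map to several places are not in the gene counts. The rest of the genome was not searched for copies.

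The genes stand in 3 kinds of locus. Mir130a (ENSMUSG00000065484) lies between genes on chromosome 2, from 84741115 to 84741178 on the minus strand of mm10, with no other miRNA gene within 10 kb. The nearest annotated gene ends 990 bases upstream on the same strand (Gm19426), and Ypel4 ends 2459 bases downstream on the other strand. Mir301 (ENSMUSG00000065589) lies on chromosome 11 from 87113004 to 87113089 on the plus strand, in the intron that follows the first exon of Ska2, 3699 bases after that exon. Ska2 encodes a subunit of the spindle and kinetochore associated complex, which holds chromosomes to spindle microtubules in mitosis. Mir130b (ENSMUSG00000065572, 17124061 to 17124142) and Mir301b (ENSMUSG00000076288, 17124400 to 17124496) form a pair on the minus strand of chromosome 16. Mir301b comes first in the direction of transcription and Mir130b follows after a gap of 257 bases. The pair also lies in an intron, the 1335 bases after the first exon of the protein-coding gene 2610318N02Rik, so 3 of the 4 genes had a host gene on their own strand. Host gene messenger RNA was not measured in these libraries.

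**Figure D1:**
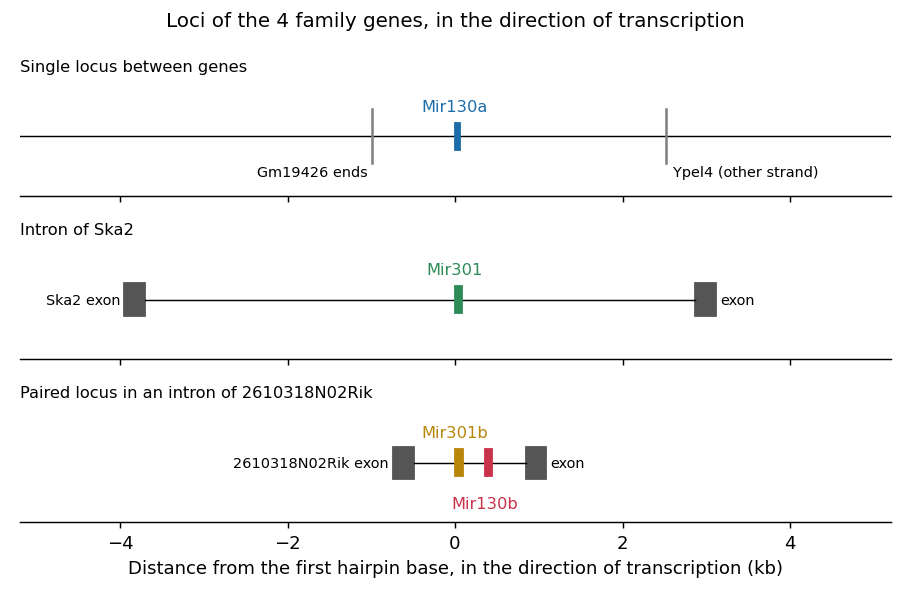
Map of the 3 loci in the direction of transcription, with the distance in kb from the first base of Mir130a, Mir301 or Mir301b on the axis. Hairpins and introns are to scale, exons are drawn as blocks of a fixed width, and grey lines mark where the neighbouring genes end. Mir130b follows Mir301b after 257 bases within an intron of 1335 bases.

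Mir130a was the most abundant family gene and ranked 4 among the 1973 gene rows in each library. Multimapping reads are not counted, so genes with several copies can rank too low, and all ranks here hold for these counts only. Mir130a had 49285 counts in replicate 1 and 52662 in replicate 2. Scaled to CPM, where 1 CPM is 1 count in 1000000 counts on the gene strand over all miRNA genes, this was 38468 CPM (95% interval 38135 to 38802) and 40583 CPM (40244 to 40924), a mean of 39525 ± 1495 CPM (SD, n = 2, as for each ± below). In bulk tissue, fewer cells of a type and less RNA per cell cannot be told apart. In replicate 1 the gene made up 74.4% of the family's counts and in replicate 2 73.4%. The libraries stood close together, and their intervals, which cover counting error only, did not overlap. The miRNA is known from human endothelial cells, where it represses the homeobox genes GAX and HOXA5.

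Mir130b, the downstream hairpin of the pair, was next in the family. It had 12266 counts or 9574 CPM in replicate 1 and 14145 counts or 10900.5 CPM in replicate 2, with a mean of 10237 ± 938 CPM. Its rank was 29 in replicate 1 and 21 in replicate 2. Of the 4 genes it varied most between the libraries, with an SD of 9.16% of its mean, against 3.46 to 3.78% for the other 3 genes.

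Mir301, in the Ska2 intron, held rank 61 in both libraries. It had 4322 counts or 3373 CPM in replicate 1 and 4597 counts or 3543 CPM in replicate 2, a mean of 3458 ± 120 CPM. Mir301b, the upstream hairpin of the pair, was the least abundant. It had 353 counts or 276 CPM (248 to 306) in replicate 1 and 376 counts or 290 CPM (261 to 321) in replicate 2, a mean of 283 ± 10.1 CPM, at ranks 178 and 167. Its intervals overlapped, and at this depth a difference of this size between the libraries was not detectable for it. The order of the 4 genes was the same in both libraries, and no 2 of them overlapped in their ranges.

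**Figure D2:**
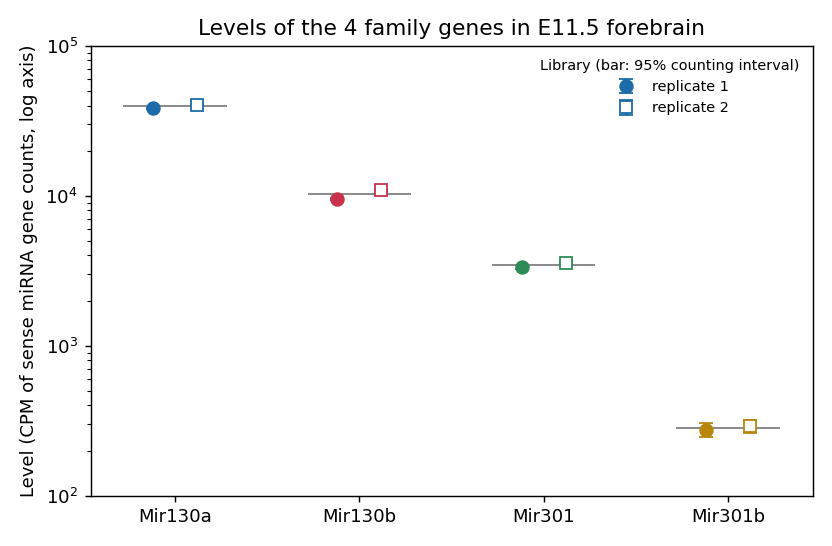
Level of each gene in CPM on a log axis, in replicate 1 (filled circles) and replicate 2 (open squares), with 95% counting intervals and the mean as a grey line. The genes stand apart from Mir130a, at 38468 and 40583 CPM, down to Mir301b, at 276 and 290 CPM.

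Differences within the family were far larger than those between the libraries. Mir130a exceeded Mir130b by 2.01 on the log2 scale in replicate 1 and 1.90 in replicate 2, a mean of 1.95 ± 0.08 or 3.87-fold. Mir130a exceeded Mir301 by 3.51 and 3.52, a mean of 3.51 ± 0.0047 or 11.4-fold. Against Mir301b, the excess of Mir130a was 7.12 and 7.13, or 140-fold. The 2 genes of the miR-130 kind held 92.9% of the family's counts in replicate 1 and 93.1% in replicate 2, and the 2 of the miR-301 kind 7.06% and 6.93%. Each gene of the miR-130 kind thus lay above both of the miR-301 kind. No length correction was applied, since a read of this size covers a whole mature miRNA whatever the length of its hairpin. How well each sequence was captured was not measured.

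By locus, the paired genes together reached 9849 CPM in replicate 1 and 11190 CPM in replicate 2, which was 19.1 and 20.2% of the family. The single locus of Mir130a held 73.9% ± 0.745 of the family and the Ska2 intron 6.47% ± 0.0862. Within the pair the hairpins were unequal. Mir301b made up 2.80% of the pair's counts in replicate 1 (exact 95% interval 2.52 to 3.10%) and 2.59% in replicate 2 (2.34 to 2.86%). The log2 ratio of Mir130b over Mir301b was 5.12 (4.97 to 5.28) in replicate 1 and 5.23 (5.09 to 5.39) in replicate 2, with a mean of 5.17 ± 0.08 or 36.1-fold. These intervals overlapped, which is not a test of the difference, and no change of the ratio between the libraries is called. Mir301b was also below Mir301, the gene with the same 5p seed, by 3.61 ± 0.0014 on the log2 scale, or 12.2-fold.

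Other neighbouring hairpins give a scale for the pair. The annotation holds 98 pairs of adjacent miRNA genes on the same strand, at most 10000 bases apart, with 10 counts or more for each hairpin. The log2 ratio of the upstream over the downstream hairpin was -5.17 for Mir301b over Mir130b. The absolute ratio over the 98 pairs had a median of 2.38, with quartiles at 1.41 and 4.82 and a maximum of 10.3. In 22 of the pairs (22.4%) the hairpins were further apart than Mir301b and Mir130b. The upstream hairpin was the lower in 52 pairs and the higher in 46. Between the libraries, the ratio of Mir301b over Mir130b moved by 0.11, beside a median of 0.16 over the pairs. That median includes pairs with few counts and was 0.14 over pairs with 50 counts or more for each hairpin. In 39 of the 98 pairs a hairpin shares 20 bases or more with another hairpin, and multimapping reads are not counted. Among the 59 pairs in which neither hairpin shares a stretch of 20 bases with another, 9 (15.3%) were further apart and the median was 2.20. Pairs of a cluster can share a hairpin and are not independent, and no test was made.

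**Figure D3:**
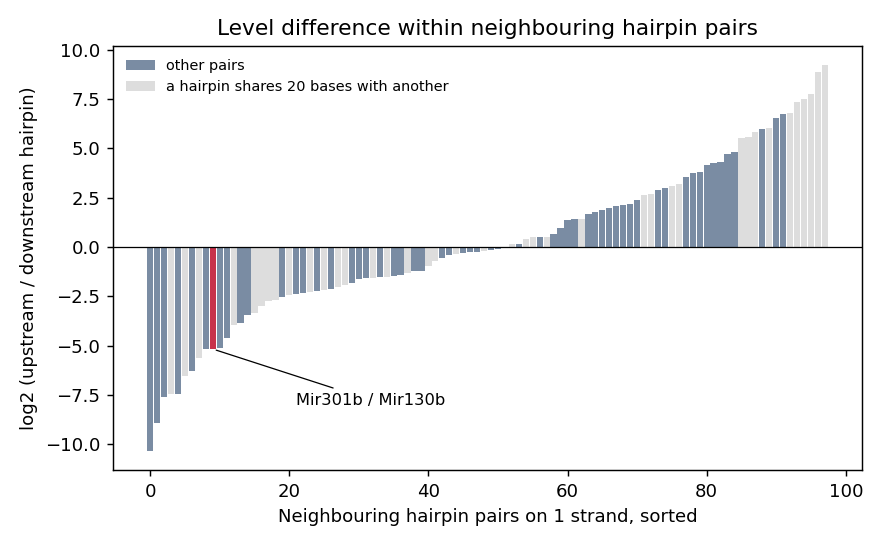
Log2 ratio of the upstream over the downstream hairpin (mean of 2 libraries) for 98 neighbouring pairs, sorted, with Mir301b over Mir130b in red. Pale bars are pairs with a hairpin that shares 20 bases with another, and the red bar stands at -5.17, with 22 pairs further from 0 in either direction.

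Set beside genes of the same kind of locus, the family lay high. Of 157 genes between genes with a count in either library, Mir130a had the highest level, and the median was 89.95 CPM. Of 343 such genes in introns of a host on their own strand, Mir130b ranked 13, Mir301 26 and Mir301b 70, beside a median of 4.65 CPM. Genes with a count in an exon of a host had a median of 7.37 CPM over 184 genes. Intronic genes with a miRNA neighbour within 10 kb had a median of 103 CPM over 82 genes, and those without a neighbour 3.10 CPM over 261. Mir130b ranked 7 and Mir301b 30 of the intronic genes with a neighbour, and Mir301 ranked 15 of those without. The levels were known when the family was chosen, so these ranks are a description and were not tested. Genes with several copies lose multimapping reads, so these ranks too hold for these counts only.

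**Figure D4:**
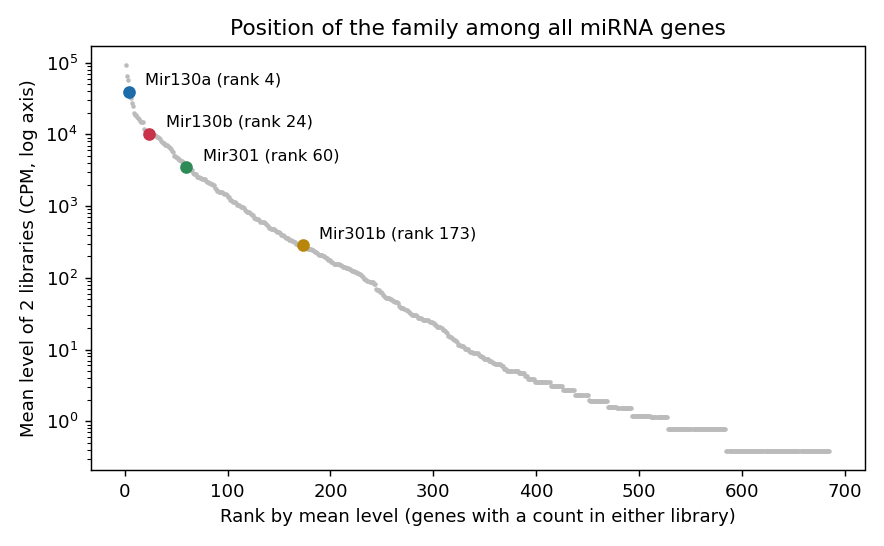
Mean level of 2 libraries in CPM, on a log axis, against rank, for genes that had any count. The family genes are coloured and stand at ranks 4, 24, 60 and 173.

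Genes with a mean level next to that of a family member were named by their rank alone, over 2 libraries, which says nothing of shared control. Mir99a, at 58910 and 55248 CPM, stood above Mir130a, and Mir99b, at 35543 and 31136 CPM, below it, and neither overlapped it. Mir23b at 10747 ± 331 CPM and Mir431 at 10211 ± 1357 CPM flanked Mir130b, and the ranges of both overlapped that of Mir130b. Mir361, at 3683 and 3604 CPM, lay above Mir301 without overlap, whereas Mir20b, at 3128 and 3765 CPM, overlapped it. Mir135a-2 at 283 ± 16.8 CPM and Mir758 at 281 ± 2.53 CPM flanked Mir301b with overlapping ranges. The position of Mir130a was therefore distinct from its neighbours in both libraries, and the other 3 genes had at least 1 neighbour they could not be separated from. The highest gene of the series was Mir335, at 87361 CPM in replicate 1 and 96992 CPM in replicate 2.

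Further mouse miRNAs carry the same seed and had no counts. RefSeq lists bases 2 to 8 of the family in mature miRNAs of 4 genes besides the members, Mir130c, Mir6341, Mir6389 and Mir721. They are printed to show the shared 5′ end, with the seed in capitals.

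miR-130c: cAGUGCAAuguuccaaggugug

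miR-721: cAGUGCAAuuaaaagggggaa

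miR-6341: cAGUGCAAugauauugucacuau

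miR-6389: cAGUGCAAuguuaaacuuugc

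Mir130c, Mir6341 and Mir6389 had 0 counts in both libraries and on both strands, so the upper limit from 3 counts is 2.34 CPM for replicate 1 and 2.31 CPM for replicate 2. Mir721 had no row under its annotated identifier and was not analysed here. All counts of genes with this seed that could be assigned to a gene row thus came from the 4 members. Summed by bases 2 to 8 of either arm, the family seed reached 51691 CPM in replicate 1 and 55315 CPM in replicate 2, at place 7 of 1205 seeds. The 6 sums above it were led by Mir17, Mir99a and Mir335, each of which led a sum for 2 different seeds. A gene counts once for each of its arms there, so such a sum also holds reads of the other arm. Multimapping reads are left out, so sums over genes with shared sequences can be too low. The place of the family among the seeds therefore holds for these counts only. Mir301b was added to the family by its membership.

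Seeds shifted by a single base belong to miR-19 and to miR-148 and miR-152, and the genes of both were far less counted. The mature 3p forms are shown with bases 2 to 8 in capitals.

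miR-19a-3p: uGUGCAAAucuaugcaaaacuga

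miR-148a-3p: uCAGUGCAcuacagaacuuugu

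The 3 genes Mir148a, Mir148b and Mir152 reached 977 CPM in replicate 1 and 1005 CPM in replicate 2 together, and the family exceeded them 54.0-fold. The 3 genes Mir19a, Mir19b-1 and Mir19b-2 reached 196 and 218 CPM, and the family exceeded them 259-fold. Mir19b-1 and Mir19b-2 give the same 3p miRNA and lose multimapping reads, so their sum can be too low by an unknown amount. Members of these lists ran from 18.6 ± 3.46 CPM for Mir19b-2 to 475 ± 19.1 CPM for Mir148a. Of the 6 genes, Mir148a and Mir148b lay above Mir301b and the other 4 below it.

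Nearly all counts of the family were on the strand of the gene. On the opposite strand Mir130a had 0 counts in replicate 1 and 1 in replicate 2, and the other 3 genes had 0 in both. Over all miRNA genes, 96.4% of the gene counts in replicate 1 and 96.8% in replicate 2 were on the strand of the gene.

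The libraries were compared gene by gene to see how closely the replicates agree on these genes. This test compares 2 libraries and no condition. All 4 members had log2 ratios below 0, as had 142 of the 398 genes tested (35.7%). The log2 ratio of replicate 1 over replicate 2 was -0.19 for Mir130b (95% interval -0.22 to -0.15), -0.08 for Mir130a (-0.09 to -0.06), -0.07 for Mir301 (-0.13 to -0.01) and -0.07 for Mir301b (-0.29 to 0.14). None of the 4 passed a 2-fold difference at an adjusted p under 0.05 in the two-sided exact binomial test, which called 11 of 398 tested genes (2.76%). At an unadjusted p under 0.05, 3 of the 4 and 141 genes differed, with no fold minimum.

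With no fold minimum, Mir130b (adjusted p = 1.37e-24) and Mir130a (adjusted p = 1.95e-16) were lower in replicate 1 in the exact binomial test with Benjamini-Hochberg adjustment, whereas Mir301 (adjusted p = 0.0673) and Mir301b (adjusted p = 0.713) did not pass. Over all genes, 31 of 398 (7.79%) were lower and 82 (20.6%) higher in replicate 1 by this rule, and the median log2 ratio was -0.07 over the 4 members and 0.07 over all genes. The test knows counting error alone, and small shifts of abundant genes pass it. The dispersion for edgeR's exact test came from the difference between the same 2 libraries, so ordinary differences between them are absorbed and its low number of calls shows no agreement. With a biological coefficient of variation of 10.3%, estimated in this way, edgeR's exact test called 0 of the 4 members and 8 genes in all, and at an unadjusted p under 0.05 it had 0 members and 20 genes. With edgeR's TMM factors the binomial test gave 54 genes lower and 52 higher in replicate 1, and with DESeq2's size factors 49 lower and 61 higher. Mir301 then also passed as lower, at -0.14 with TMM (adjusted p = 2.4e-05, exact binomial test) and -0.12 with DESeq2 (adjusted p = 0.000516). The TMM and DESeq2 scalings each shift the log2 ratios of all genes down by a constant, so members below 0 could not cross it. With both strands together and no such scaling, Mir301 passed narrowly, at -0.08 (adjusted p = 0.0456, exact binomial test). In that setting 34 of 409 genes were lower and 82 higher in replicate 1.

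The ratios of Mir130b to Mir130a and Mir301 were read in each library. Its log2 distance below Mir130a was 2.01 (1.98 to 2.04) in replicate 1 and 1.90 (1.87 to 1.92) in replicate 2. Its log2 distance above Mir301 was 1.50 (1.45 to 1.56) in replicate 1 and 1.62 (1.57 to 1.67) in replicate 2. Neither pair of intervals overlapped, but they cover counting error only and leave out the spread between pools. With 2 libraries that spread is not well known, and no change of Mir130b is called from these differences. The ratio of Mir130a over Mir301 moved by less than 0.01 between the libraries. Whether Mir301b moved with Mir130b, from the same intron, was not detectable with 353 and 376 counts.

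**Figure D5:**
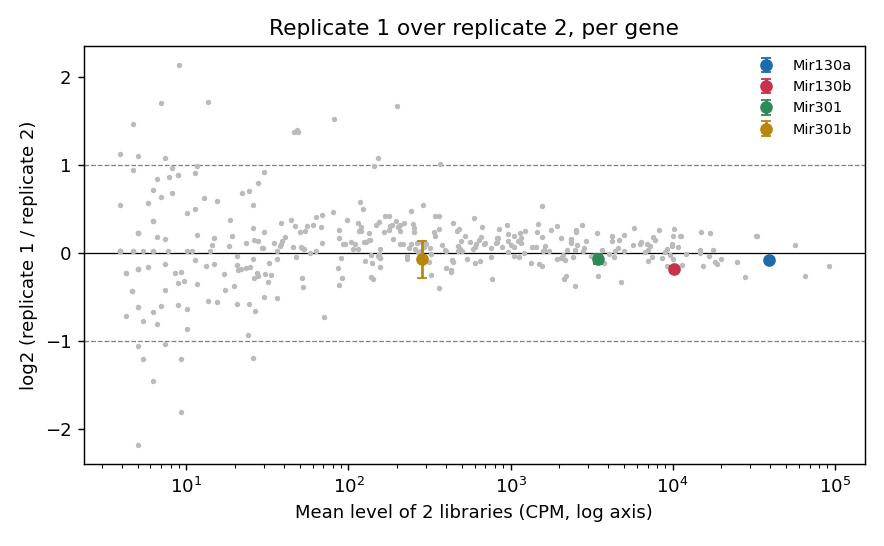
Log2 ratio of replicate 1 over replicate 2 against the mean level in CPM (log axis) for the 398 genes tested, with the family genes coloured and their 95% counting intervals. Dashed lines mark 2-fold, and the 4 family genes lie between -0.19 and -0.07.

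Markers of neural and of other cells were present, and their summed levels do not give shares of cells. Of 11 neural miRNA genes counted, 10 reached 2 CPM in each library, with a sum over all 11 of 60242 CPM (replicate 1) and 55926 CPM (replicate 2). The neural list held 12 genes, among them several copies each of Mir9 and Mir124a, and multimapping reads are not counted. Mir9-1 had no row, and Mir124a-1 had 4 counts over both libraries, so the sum does not show each listed gene to be abundant. The copies of Mir9 and Mir124a with a row made up little of the sum, which came mainly from the other listed genes. The endothelial gene Mir126a had 34601 and 30323 CPM, 6 mesenchyme genes 15020 and 13696 CPM, 3 erythroid genes 606 and 371 CPM and 4 leukocyte genes 788 and 804 CPM, each of them above 2 CPM in both libraries. Of 6 Hox cluster genes, from loci used in the hindbrain and trunk, 5 reached 2 CPM in each library while 1 stood at 0, and their sum was 210 CPM in replicate 1 and 84.0 CPM in replicate 2. Which of these cells held the family was not measured, and the part of these differences in the library ratios of the members was not tested.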

How the data were processed

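The deposited tables hold raw counts per miRNA gene, which the authors made from 1 library each. The mm10 build and the GENCODE M4 annotation are per the file headers in the accompanying text files. The alignment software is not given in the sources used here. Each table has columns for both strands, the strand of the gene and the opposite strand. The gene-strand counts were used, 1281201 in replicate 1 and 1297647 in replicate 2, with rows for unmapped, multimapping (29.5 and 29.2% of reads) and unassigned reads left out. CPM are relative to these totals. Of mapped reads, 41.7% in replicate 1 and 39.1% in replicate 2 were multimapping.

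GENCODE M21 (GRCm38) held 1894 of the 1973 identifiers and gave symbols, positions and hosts. Sequences are from RefSeq (GRCm38.p6), and folding energies from ViennaRNA 2.7.2. Members, lists and named genes were chosen with earlier results of these data known. Named genes were the members, genes with their seed or a seed shifted by 1 base, the next genes by mean level and the top gene. Mir6368, Mir17 and Mir124a-1 were named after their values were seen.

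Libraries were compared per gene with 10 counts or more by a two-sided exact binomial test (scipy 1.17.1), with Benjamini-Hochberg adjustment over 398 genes and 0.5 counts added for log2 ratios. The test was checked on simulated counts drawn with counting error alone. This check therefore does not cover the spread between pools. edgeR 4.0.16 and DESeq2 1.42.0 (R 4.3.3) gave alternative scalings, and edgeR an alternative test. Intervals are exact Clopper-Pearson intervals and, like the limits from 3 counts, reflect counting error alone, because PCR copies are not separate molecules. The labels number the libraries as biological replicates, and the SD over 2 libraries is imprecise. The libraries differed beyond sampling noise (chi-square of 22.1 per degree of freedom over 398 genes). Figures were drawn with matplotlib 3.10.9 in Python 3.11.15.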

Additional observations from a re-analysis of the deposited data

How the results depend on the processing

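No paired analysis was possible because the series has a single group. The family's share of 5.35% became 9.09% without the 10 most abundant genes in the total and 1.88% with all reads as the total. These totals are smaller and larger by construction. Mir130a is among the 10 genes left out of the smaller total but stayed in the family sum. The 9.09% is therefore not a share of the remaining genes. With both strands together the family's share was 5.17%. The ratios between members moved beyond the spread of the libraries only where that spread was very small: Mir130a over Mir301b, at 7.13, became 7.11 with a pseudocount of 5 counts, and Mir301 over Mir301b, at 3.611, became 3.613 with no pseudocount and 3.595 with 5 counts. The number of genes called between the libraries, 11, became 113 with no fold minimum and 7 with the edgeR exact test, and with the other filters and scalings it lay between 8 and 12. Pairs further apart than Mir301b and Mir130b were 22.4% of pairs, 21.2% with a gap of at most 1000 bases, 16.5% with 50 counts or more and, in an alternative chosen after seeing the data, 15.3% without shared stretches of 20 bases. With rows that have no count included, the median level was 0 CPM between genes, 0 CPM in introns and 0.385 CPM in exons. Of 96 values under alternatives, 75 stayed within the spread of the libraries, within 1.5 times for counts of genes or, for the library ratios of the members, on the same side of the 2-fold call. With 2 libraries, the SD itself is imprecise, and leaving out either gives a value with no spread. Such a value always lies within the SD of the 2, whatever the data. The library ratios of the members were likewise too small for the alternatives to bring them to the 2-fold call. The number of values that stayed the same is therefore no measure of robustness.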
